A study of Mus musculus with 12 samples.

Results

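Heat shock in embryonic stem cells without Mettl14 was followed through 4 of the 12 libraries of a ribosome profiling series in the mouse. The members were chosen by their labels alone: 2 libraries of Mettl14 -/- (KO) cells heated at 42 °C for 30 min, against 2 libraries of KO cells that were not heated. Both groups came from the mES V6.5 line, grown on gelatin with LIF and inhibitors of GSK3 and MEK, and by their labels differed only in the heating. Wild-type (WT) libraries of the same treatments, 2 heated and 2 unheated, served for the comparison of genotypes. Libraries taken 1 h after the heat entered the shared estimate of the spread, the choice of transcripts to test and the classes by strand. The series calls the 2 libraries of a group biological replicates. How the KO line was made, and whether it is 1 clone, is not given in the sources used here.

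Mettl14 is the partner of Mettl3 in the complex that methylates adenosines of mRNA at N6 (m6A), a mark that is read by YTH domain proteins and influences how long an mRNA lives and how it is translated. Under heat shock, cells curb the initiation of translation on most mRNAs, store many of them in stress granules, and make chaperones such as Hsp70 under the transcription factor Hsf1. Ribosome profiling sequences the mRNA fragments that ribosomes shield from RNase, so that the count on a transcript follows the ribosomes on all its copies. Counts of mRNA were not analysed here, so that fewer ribosomes per mRNA and fewer mRNA copies cannot be told apart.

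The counts are per transcript of the UCSC known gene set, and the files do not pair these IDs with gene symbols. None of the 61396 IDs matched the mouse gene table used here, so that 0 genes could be named, chaperone and pluripotency markers could not be looked up, and the loss of Mettl14 could not be checked in the counts. Ribosome fragments come from the transcript's own strand, and the sense counts were used as the main measure. In the 4 KO libraries 91.9% to 97.1% of the sense counts lay on 4 transcripts (uc009vev.1, uc009vew.1, uc012hdk.1 and uc008spx.1). These were set aside, which left 21286 and 30083 sense counts in the unheated KO and 12568 and 3874 in the heated KO. Each value is given on 2 scales. The first is a share of the sense counts outside the 4 transcripts, which shows the make-up of these counts. The second is per 1000000 reads of the library, counted or not (RPM), which also keeps a change in the total. A transcript with no count could still hold up to 3 counts, which is 0.0774% of the sense counts in heated KO replicate 2 and 0.00997% in unheated KO replicate 2.

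The sense-strand signal of heated KO cells was under that of unheated KO cells in both libraries. Outside the 4 transcripts, the sense counts came to 11354 and 15293 RPM in the unheated KO and 6460 and 4316 RPM in the heated KO. The means were 13324 ± 2785 and 5388 ± 1516 (SD, n = 2 each), a ratio of 2.47. The antisense counts were 5018 and 7061 RPM without heat and 5829 and 5303 RPM with it, so that the heated libraries lay within the range of the unheated ones. The sense share of the stranded counts was 69.3% (95% Wilson interval 68.8% to 69.9%) and 68.4% (68.0% to 68.8%) without heat. It was 52.6% (51.9% to 53.2%) and 44.9% (43.8% to 45.9%) with heat. Wilson and counting intervals here take in the error of counting alone, as copies made by PCR are not separate molecules. An exact two-sided permutation test of 2 libraries against 2 cannot give a p below 0.333, which was the value for the sense counts and for the sense share. With the 4 transcripts kept the sense share differed by −5.26 percentage points instead of −20.2. Reads may enter both strands there: in the unheated KO uc009vew.1 had 161405 and 226785 sense counts, and uc012hdk.1 162913 and 227768 antisense counts. Without regard to strand, where a read over overlapping transcripts is left out, uc009vew.1 had 271 and 883 counts and uc012hdk.1 1709 and 1772. Whether these are the same reads was not tested read by read. Among the 291 transcripts with enough sense counts for a test, a choice made on sense counts, the share differed by −2.46 percentage points. The part of this shift between the strands in the transcript results that follow was not tested.

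**Figure D1:**
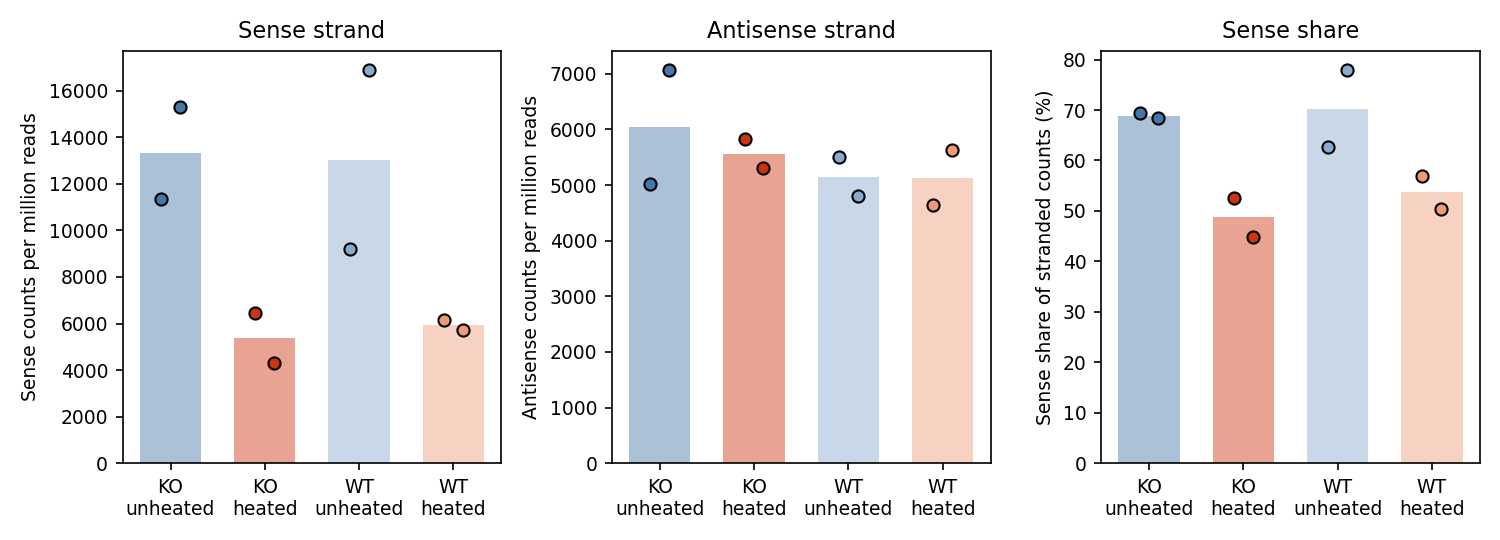
Sense and antisense counts in RPM, and the sense share of stranded counts in percent, outside the 4 transcripts set aside; points are libraries and bars the mean of 2. The heated KO libraries have 6460 and 4316 RPM on the sense strand against 11354 and 15293 without heat, while the antisense counts of the heated KO lie between those of the unheated KO.

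WT cells showed a difference of like size. Their sense counts were 9198 and 16874 RPM without heat and 6134 and 5725 RPM with it, a ratio of the means of 2.20, and their antisense counts were 5148 ± 493 and 5134 ± 692 RPM (SD, n = 2 each). Whether the ratio differs between the genotypes was not tested.

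Transcripts were then classed by strand on the 8 other libraries, so that the KO libraries compared did not set the classes. Of the 265 sense-strand transcripts, defined by at least 80% of 50 or more counts on their own strand, the summed sense counts were 6018 and 10542 RPM in the unheated KO and 4379 and 2675 RPM in the heated KO. Both heated libraries were thus under both unheated ones. The median log2 ratio of heated to unheated KO over these transcripts was −1.44 (quartiles −2.68 and 0.07), per library reads and with both strands summed. The 99 antisense-strand transcripts, with at most 20% of their counts on their own strand, had 3145 and 4384 RPM of antisense counts without heat and 4352 and 4217 RPM with it. These ranges overlapped, and the median log2 ratio was 0.52 (quartiles 0.03 and 0.83). The 17 mixed transcripts had a median of −0.50. In these ratios a transcript with no count in a group was set at 3 counts.

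Of the transcripts, 291 had enough sense counts for a test, and their levels in heated and unheated KO libraries differed in both directions. As a share of the sense counts, 102 of the 291 (35.1%) were higher in both heated KO libraries than in both unheated ones, and 78 (26.8%) were lower in both. Per library reads the balance turned: 56 (19.2%) were higher in both and 128 (44%) lower in both. The 56 were among the 102, and the 78 among the 128. This nesting is fixed by arithmetic, since sense counts per read were lower in both heated libraries than in both unheated ones. It is no separate support for either set. The median log2 ratio over the 291 was 0.37 as a share (quartiles −1.11 and 1.72) and −0.84 per library reads (quartiles −2.32 and 0.51). The scales differ by 1.21 on the log2 scale, the shift in total sense counts. As a share 43 transcripts were over 4-fold lower and 54 over 4-fold higher, and per library reads 84 and 12. If heating had no effect, groups of 2 and 2 libraries would fail to overlap, in either direction, with a probability of 0.333 per transcript. Transcripts share these libraries, and the counts were not tested against that value. The counts describe the libraries, and the transcripts reached the test by being high in some group of the 12 libraries.

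**Figure D2:**
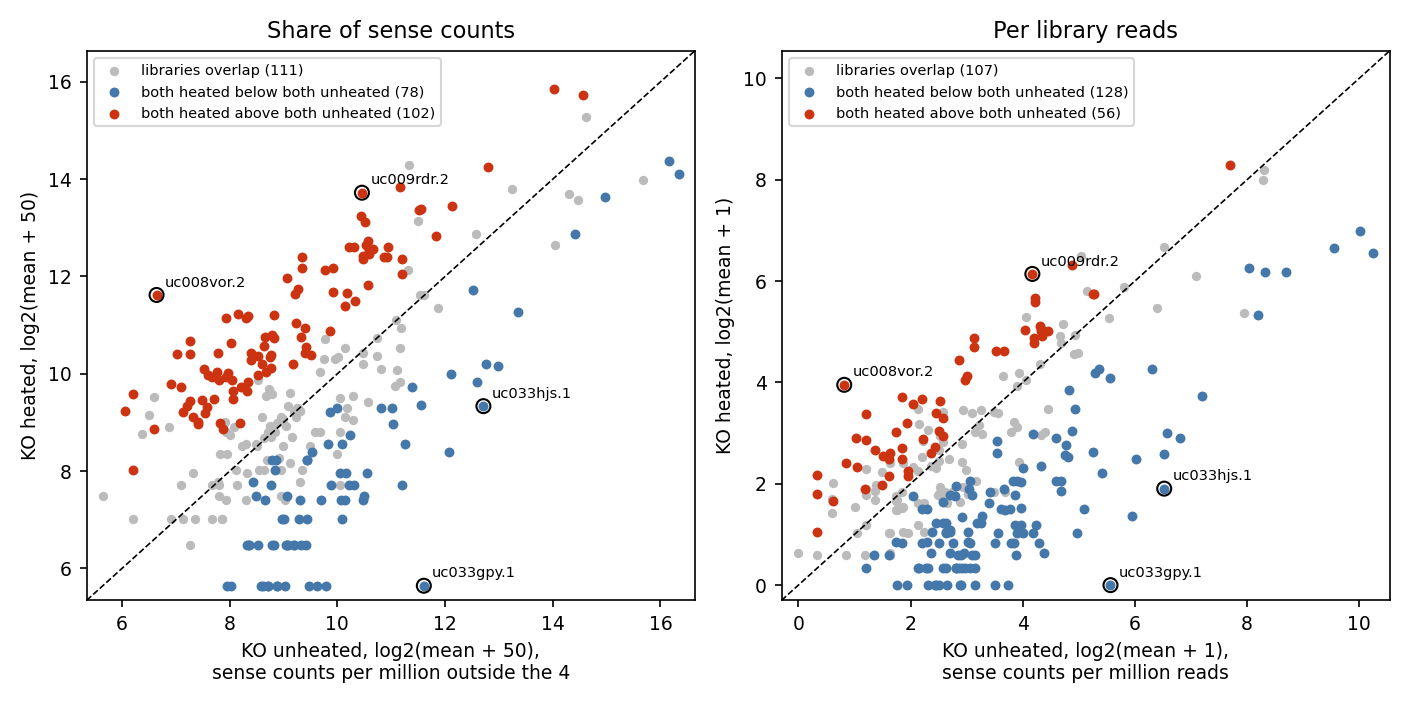
Mean level of the 291 tested transcripts in unheated KO (horizontal) and heated KO (vertical), as log2 of sense counts per 1000000 sense counts outside the 4 transcripts plus 50 (left) and of RPM plus 1 (right). The dashed line marks equal levels; 102 transcripts lie above it with no overlap of libraries on the left and 56 on the right, 78 and 128 below it, and the 4 transcripts named in the text are ringed.

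The 78 that were lower in both as a share took 22.7% and 41.2% of the sense counts in the unheated KO and 9.54% and 6.48% in the heated KO. They summed to 2572 and 6297 RPM without heat and 616 and 280 RPM with it. A single transcript of the 78 had 603 and 4134 sense counts without heat and 203 and 73 with it. Another had 926 and 3113 against 398 and 42. The sums thus lean on a few large transcripts, above all in unheated KO replicate 2. The 56 that were higher in both per library reads took 6.70% and 3.50% without heat and 19.5% and 29.6% with it. Their sums were 761 and 535 RPM without heat and 1263 and 1276 RPM with it. Both sets were chosen on these libraries, so the sums describe their size and support no direction. Counting error adds at most 1.57 percentage points to either side of a share of the sense counts in a KO library.

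In the test across all transcripts 1 transcript was lower in the heated KO and 1 higher, 0.344% of 291 each and 2 in all (0.687%; edgeR quasi-likelihood test, adjusted p below 0.05, shares of sense counts), with 56 at an unadjusted p below 0.05. The transcript that fell was uc033gpy.1. It had 6 and 176 sense counts in the unheated KO, or 3.20 and 89.5 RPM, and 0 in both heated libraries. The observed counts did not overlap, but the unheated libraries were far apart. A count of 0 allows up to 0.0239% and 0.0774% of the sense counts of the heated libraries. With the heated group set at 3 counts in all, its share was at least 19.4-fold lower in the heated KO (edgeR adjusted p = 0.0143), and per library reads at least 44.9-fold lower. The bound rested on unheated KO replicate 2. As a share it was 1.54-fold without that library, 32.1-fold without unheated replicate 1, and 4.58-fold and 14.8-fold without heated replicate 1 and 2.

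In the WT the same transcript had 60 and 154 counts without heat and 6 and 0 with it. As a share it was among the transcripts called lower there (edgeR adjusted p = 0.0207).

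The transcript that rose was uc008vor.2. It had 0 and 3 sense counts in the unheated KO and 13 and 20 in the heated KO, or 6.68 and 22.3 RPM with heat against 0 and 1.53 without it. Both heated libraries were above both unheated ones. As a share of sense counts the ratio was 34.4 (95% counting interval 10.8 to 175, edgeR adjusted p = 0.0362), and per library reads it was 14.9 (4.66 to 75.7). As a share it was 20.1 without unheated replicate 1 and at least 14.2 without unheated replicate 2, and 88.4 and 17.7 without heated replicate 1 and 2. In the WT its counts were 1 and 2 without heat and 4 and 0 with it.

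A transcript with larger counts, uc033hjs.1, was next among those with lower levels and did not pass the threshold in the fit of all 12 libraries. It had 118 and 234 sense counts in the unheated KO and 2 and 4 in the heated KO. These are 62.9 and 119 RPM against 1.03 and 4.46, with no overlap. Its ratio was 18.8 as a share (95% counting interval 8.54 to 51.5, edgeR adjusted p = 0.151, log2 fold change −3.74 with a standard error of 1.23). Per library reads the ratio was 43.4 (19.7 to 119). As a share it was 43.1 without heated replicate 2 and 6.64 without heated replicate 1. In the WT it had 13 and 54 counts without heat and 14 and 4 with it.

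On the other side, uc009rdr.2 was next and likewise did not pass in the fit of all 12 libraries. It had 40 and 25 sense counts in the unheated KO and 134 and 63 in the heated KO, which is 21.3 and 12.7 RPM against 68.9 and 70.2. The heated libraries nearly coincided and lay above both unheated ones. The ratio was 9.47 as a share (95% counting interval 7.12 to 12.7, edgeR adjusted p = 0.151, log2 fold change 3.31 with a standard error of 1.12) and 4.10 per library reads (3.08 to 5.51). As a share it was 14.4 without unheated replicate 1 and 6.38 without unheated replicate 2. In the WT its levels were 30.7 and 37.3 RPM without heat and 49.4 and 13.5 RPM with it, so that these groups overlapped.

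**Figure D3:**
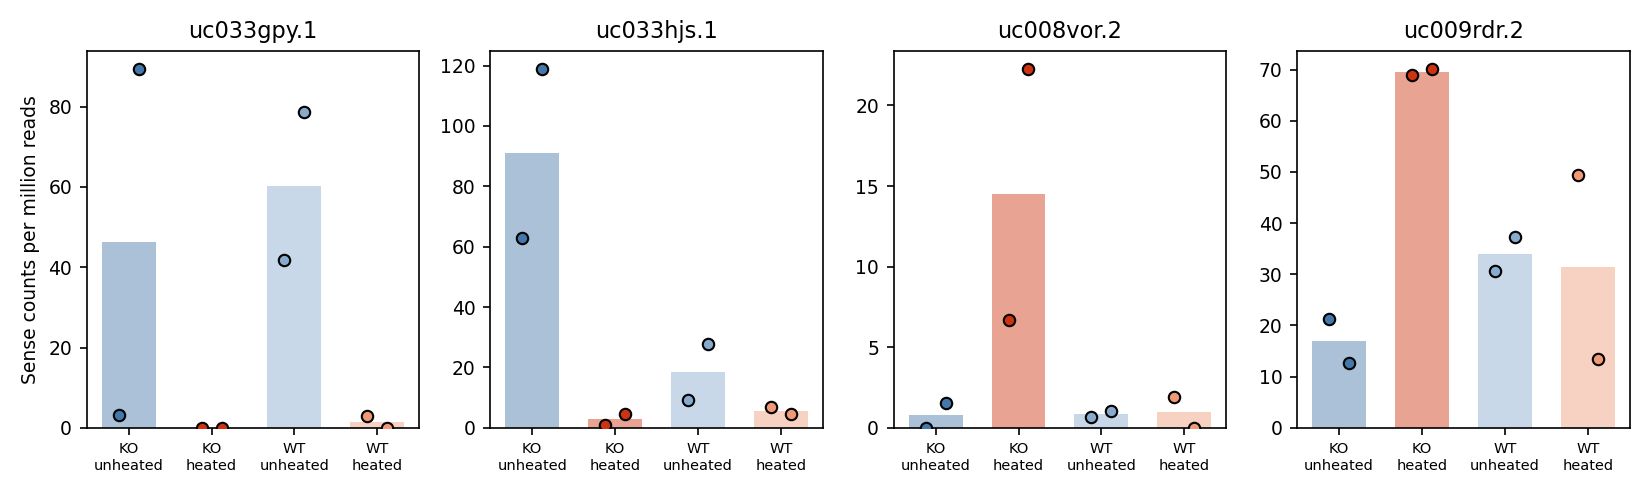
Sense counts in RPM of 4 transcripts in unheated and heated KO and WT libraries; points are libraries and bars the mean of 2. In the KO the observed values of each transcript do not overlap between groups: uc033gpy.1 is at 0 in both heated libraries and uc009rdr.2 at 68.9 and 70.2 against 21.3 and 12.7.

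How many transcripts passed depended on the scale and on the libraries that set the spread. When scaled to library reads, 0 of the 291 passed the edgeR test (0%), while 50 had an unadjusted p below 0.05. With the either-strand counts 3 of 425 passed (0.706%), all lower, uc033gpy.1 and uc033hjs.1 among them. With only the 4 KO libraries in the fit, 32 of 167 passed as a share (19.2%), 24 higher (14.4%) and 8 lower (4.79%), and 13 per library reads (7.78%), all lower. The fit of the KO libraries per library reads was added after the data were seen. On either scale uc033gpy.1 was not among the transcripts tested in the fits of the KO libraries alone. As a share uc033hjs.1 and uc009rdr.2 passed there (edgeR adjusted p = 0.0213 each), as did uc008vor.2 (edgeR adjusted p = 0.0075). Per library reads only uc033hjs.1 of these passed (edgeR adjusted p = 0.0194). The DESeq2 Wald test called 21 lower and 0 higher. The biological coefficient of variation over the 12 libraries was 67.7%. Without unheated KO replicate 2 or heated KO replicate 2, edgeR called 0, while 13 and 29 had an unadjusted p below 0.05.

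Most transcripts called lower with heat in the WT were also lower in the heated KO. The groups compared share no library. The KO libraries still entered the choice of transcripts and the spread behind the WT calls, so the overlap is not fully independent of them. In the WT, 30 of the 291 transcripts were called (10.3%; edgeR, adjusted p below 0.05), 26 lower with heat (8.93%) and 4 higher (1.37%). These calls are on shares of the sense counts. Scaled to all reads, or with DESeq2 size factors, edgeR called 0 in the WT, while 81 and 84 had an unadjusted p below 0.05. Without the filter on low counts it called 7 lower and 1 higher, with the 8 libraries without recovery 49 lower and 8 higher, and the DESeq2 Wald test called 44 lower and 1 higher. Of the 26, 19 were lower in both heated KO libraries than in both unheated ones (73.1%), against 26.8% of all tested transcripts, and 0 were higher in both. With transcripts at 0 counts set at 3 counts, the median log2 ratio of the 26 in the KO was −1.71 (range −4.62 to 0.32), against 0.37 for all 291. In the WT, where they were chosen, it was −3.90. Of the 26, 15 had no count in the heated WT and 5 had none in the heated KO, and 1 passed the threshold in the KO. In place of 26, 0 were called lower in edgeR without heated WT replicate 1 or 2, with 58 and 63 of either direction at an unadjusted p below 0.05. Without unheated WT replicate 1 or 2, 13 and 3 were called lower. Of the 4 higher in the WT, 1 was higher in both heated KO libraries and 1, uc033hsh.1, lower in both, against 35.1% and 26.8% of all tested, so that these 4 show nothing beyond the background.

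The sets were also read from the side of the KO. Of the 78 transcripts lower in both heated KO libraries, 50 were lower in both heated WT libraries (64.1%), against 30.6% of all tested, and 4 were higher in both. Of the 102 that were higher in both, 51 were higher in both in the WT (50%), against 27.1% of all tested, and 3 lower in both. The median log2 ratio in the WT was −2.61 for the 78 and 1.40 for the 102, against 0.54 for all 291. Over the 257 transcripts with counts in each of the groups compared, the log2 ratios in KO and WT correlated at 0.589 (Pearson) and 0.583 (Spearman). Transcripts are not independent replicates, and the points of a genotype share its libraries.

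**Figure D4:**
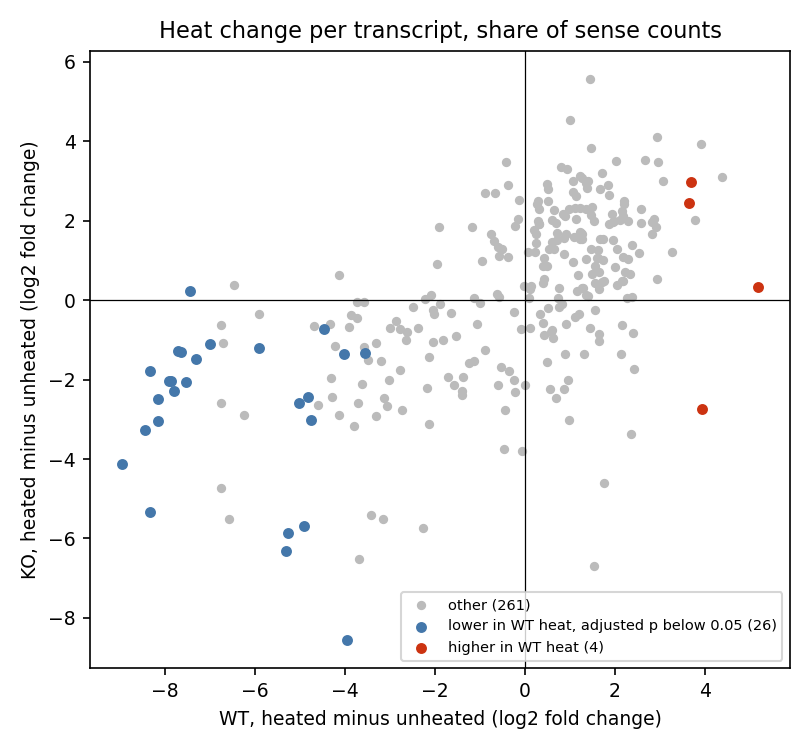
Fitted log2 fold change of heated against unheated cells for the 291 tested transcripts in WT (horizontal) and KO (vertical), on shares of sense counts; colours mark the 26 transcripts called lower and the 4 called higher in the WT. Of the 26, 19 are lower in both heated KO libraries than in both unheated ones; fitted values of transcripts with no count in a group depend on the prior count.

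A test of the difference between the responses called 1 of 291 transcripts (0.344%; edgeR, adjusted p below 0.05), with 23 at an unadjusted p below 0.05. For uc033hsh.1 the KO libraries had 30 and 327 sense counts without heat and 15 and 2 with it. The WT libraries had 77 and 138 without heat and 54 and 757 with it. Only heated WT replicate 2 stood high, with 851 RPM against 25.9 RPM in replicate 1. As a share the transcript was 6.72-fold lower in the heated KO (95% counting interval 4.14 to 11.7), or 1.36-fold without unheated KO replicate 2, 10.5-fold without unheated replicate 1 and 13.5-fold without heated replicate 1. In the heated WT it was 9.75-fold higher, or 32.0-fold without heated WT replicate 1, and without heated WT replicate 2 the direction turned, to 1.10-fold lower. The difference of the log2 fold changes, KO minus WT, was −6.68 with a standard error of 1.67 (edgeR adjusted p = 0.0197). Without heated WT replicate 2 it was −2.50 (edgeR adjusted p = 0.627), and over 24 alternatives the adjusted p ran from 0.000677 to 1.00, with 6 past the threshold.

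The next transcript, uc012bum.1, had 50 and 67 sense counts in the unheated KO and 4 and 0 in the heated KO. In the WT it had 30 and 23 without heat and 167 and 9 with it. The difference of its log2 fold changes was −5.73 with a standard error of 1.65 and did not pass (edgeR adjusted p = 0.0748). Without heated WT replicate 1 it was −3.64 (edgeR adjusted p = 0.797) and without heated KO replicate 1 −10.5 (edgeR adjusted p = 0.172), and over 24 alternatives the adjusted p ran from 0.0346 to 1.00. The KO libraries did not overlap, at 26.7 and 34.1 RPM against 2.06 and 0, while the heated WT libraries stood at 80.1 and 10.1 RPM.

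The order of transcripts by level was described by rank correlations. Across the 291 transcripts the Spearman correlation was 0.778 between the unheated KO libraries and 0.692 between the heated ones, and 0.285 to 0.533 between a heated and an unheated KO library. Heated KO libraries correlated with heated WT libraries at 0.589 to 0.780, and with unheated WT libraries at −0.0157 to 0.236. Unheated KO libraries correlated with unheated WT libraries at 0.512 to 0.723, and with heated WT libraries at 0.296 to 0.532, so that these ranges overlapped. The filter admits transcripts that are high in 1 group alone, which lowers the correlation between groups and not between replicates, so the values describe the 291 transcripts and are no test of a change with heat. Library depth, which was lowest in heated KO replicate 2, also enters them.

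The breadth of the set of transcripts detected did not separate the KO groups. At a fixed depth of 3800 sense counts outside the 4 transcripts, the expected number of transcripts detected was 1447 and 1019 in the unheated KO and 1078 and 1138 in the heated KO. The unheated libraries lay on either side of the heated ones, and without unheated replicate 1 the difference turned from −125 to 88.7 transcripts. In the WT the values were 1565 and 1515 without heat and 1089 and 1046 with it, with no overlap. The 10 largest transcripts of a library held 28.6% and 47.5% of the sense counts in the unheated KO and 32.1% and 28.7% in the heated KO. In the WT they held 16.4% and 20.3% without heat and 33.9% and 39.5% with it. Of the 10 largest transcripts of the unheated KO, 5 were also among the 10 largest of the heated KO.

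The 4 transcripts set aside did not move as a block. On the sense strand uc009vev.1 had 44933 and 60443 RPM in the unheated KO and 17949 and 19463 in the heated KO, with no overlap, and uc012hdk.1 had 5683 and 4620 against 676 and 626. For uc009vew.1 the heated libraries, at 53058 and 119252, lay on either side of the unheated ones at 86094 and 115289. For uc008spx.1 the values were 4040 and 4396 without heat and 1824 and 3623 with it. By raw counts uc012hdk.1 was mostly antisense, with 162913 and 227768 antisense counts against 10655 and 9088 sense counts in the unheated KO. With heat these were 103867 and 107899 against 1316 and 562.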

How the data were processed

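The authors deposited a table of raw counts per library, with 3 count columns per transcript (either strand, sense and antisense) and 4 rows of unassigned reads, which were left out of the tests, per the file layout. STAR, DESeq2 and mm10 are named in the submitters' processing notes, with no version or role; the sources used here do not give the alignment settings or the annotation's version. A read over overlapping transcripts of the strand counted is left out as ambiguous: 6.53% to 13.5% of reads in the KO libraries without regard to strand and 0.463% to 1.07% on the sense strand. Reads per KO library numbered 897660 to 1967103.

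Sense counts of transcripts kept by filterByExpr (minimum count 10) were tested with edgeR 4.0.16's quasi-likelihood test (R 4.3.3), 1 coefficient per group over 12 libraries with 6 residual degrees of freedom, with the sense total outside the 4 transcripts as library size. P-values were adjusted over all 291 transcripts by Benjamini-Hochberg, and 0.05 was the threshold. DESeq2 1.42.0 was an alternative. The script was tested on simulated data. Leave-one-out fits and other scalings of the sense counts kept the same 291 transcripts. Transcripts named passed the threshold, averaged at least 10 counts per 1000000 in the KO, and had no overlap of libraries and the same direction on both scales; the next by p filled up to 2 per direction, and the 2 smallest p were named for the difference. Folds against 0 counts used a floor of 3 counts over the group; ratios have 95% Clopper-Pearson intervals. Members, lists and tests were chosen with earlier results of these data known. The labels do not say whether replicate numbers pair libraries, and the main fit did not pair them.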

Additional observations from a re-analysis of the deposited data

Results flagged for a closer look

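The heat response of uc033hsh.1 differed between the genotypes by −6.68 on the log2 scale, KO minus WT, in a test of the difference itself (edgeR adjusted p = 0.0197). The value rests on heated WT replicate 2, with 757 of the 811 sense counts in the heated WT, and on unheated KO replicate 2, with 327 of 357 in the unheated KO. Without the former the difference was −2.50 and without the latter −4.56, and neither passed the threshold. The cause was not tested.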

How the results depend on the processing

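The 2 transcripts called between heated and unheated KO became 0 with scaling to all reads (sense or either-strand counts), TMM factors, DESeq2 size factors in edgeR and no filter on low counts (50, 75, 57, 56 and 165 at an unadjusted p below 0.05). They became 32 with only the KO groups in the fit, 13 with that and all reads, 21 in the DESeq2 Wald test, and 3 with the either-strand counts, with the 4 transcripts kept and TMM, and with the 8 libraries without recovery. Leaving out each library gave 0 to 2. The 1 transcript called for the difference between genotypes became 0 under each alternative other than leave-one-out fits, which gave 0 to 1 (without heated WT replicate 2 it was uc012bum.1, not uc033hsh.1); 10 to 33 had an unadjusted p below 0.05 there, and 79 without the filter. The correlation of same-numbered deviations between KO groups was −0.0531. With 2 libraries per group it cannot show whether replicate numbers pair the samples. A replicate block left 1 KO call, uc033gpy.1, and 0 for the difference. No named transcript changed direction under any alternative fitted. The fits of the KO libraries alone did not test uc033gpy.1, and the DESeq2 Wald test gave no adjusted p for uc008vor.2, so these are not counted below. For uc033gpy.1, 15 of 23 alternatives passed the threshold (adjusted p 0.00135 to 0.593), and for uc008vor.2, 9 of 24 (0.00357 to 0.593). With the 4 transcripts kept, the sense counts differed by −62450 and the antisense counts by −20568 per 1000000 reads. Without them the counts differed by −7936 and −474. With them the sense share differed by −5.26 percentage points. Reads of uc009vew.1 and uc012hdk.1 may enter both strands there, so the values with the 4 kept cannot check the shift outside them. Among transcripts past the filter only, which were chosen on sense counts, the share differed by −2.46. Leaving out each KO library gave −9905 to −5966 for the sense counts, −24.0 to −16.3 for the share, and −1495 to 548 for the antisense counts, which turned without unheated replicate 2. For the 10 largest transcripts the difference, −7.63 percentage points, ran from −17.1 to 1.86. Depth limits the heated side most: heated KO replicate 2 holds 3874 sense counts.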
